A study of Homo sapiens with 18 samples.

Results

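The SF3b and SF3a complexes are the parts of the U2 small nuclear ribonucleoprotein (snRNP) that hold the branch site of an intron. The genes described are their 10 subunits, chosen by symbol: the 7 SF3b subunits SF3B1, SF3B2, SF3B3, SF3B4, SF3B5, SF3B6 and PHF5A, and the 3 SF3a subunits SF3A1, SF3A2 and SF3A3. All 10 were present among the 20263 genes of the count table, and all 10 passed the filter on low counts that left 14234 genes for testing.

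RNA sequencing counts came from 18 libraries of wild-type human cancer cells whose labels name a colon line (HCT-116), a breast line (MDA-MB-231) or a liver line (MHCC-97H). Cells of each label were kept in medium with 10% fetal bovine serum and given the solvent DMSO or 20 nM H3B-8800 for 24 h, with 3 libraries in each of the 6 groups. Whether separate cultures gave the libraries within a group is not in the labels, so p-values measure the spread between these samples, which may be technical. They give no batch or date.

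Splicing removes introns after the U2 snRNP pairs with the branch site. SF3B1, a curved chain of HEAT repeats, clamps the paired helix together with PHF5A, and H3B-8800 belongs to the class of small molecules that bind in the pocket between SF3B1 and PHF5A. SF3B3 is a propeller-shaped scaffold, SF3B2 carries the RNA-binding subunit SF3B4, SF3B6 sits beside the branch site, SF3B5 is a small bridging subunit, and the SF3a subunits join SF3b to the rest of the U2 snRNP. These proteins act in all cells that splice, so their messages were looked for under each label.

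The libraries carrying the HCT-116 label and those carrying MDA-MB-231 shared one profile, which limits what a comparison of those labels can show. Totals ran from 28232315 to 41488278 counts per library. Between their DMSO libraries edgeR called 5 of 14234 genes (0.0351%) and none of the 10 subunits at an adjusted p under 0.05, with 588 genes at an unadjusted p under 0.05. All 6 intestinal epithelium markers were detected under both labels, KRT20 at 898 and 912 CPM (read counts divided by the library total and put on a common scale), and all 6 had 0 counts under the MHCC-97H label, where 0 counts allow up to 0.0142 CPM. Of the liver markers, ALB, AFP, TTR, APOA1 and SERPINA1 were also at 0 counts under the MHCC-97H label, while HNF4A was at 4.86 CPM. All of them were higher under MDA-MB-231 and HCT-116. There HNF4A was at 28.6 and 35.7 CPM, ALB at 17.2 and 21.2 CPM, and SERPINA1, the lowest, at 0.0823 and 0.0559 CPM. The 6 markers of a mesenchymal or basal breast line were split. VIM stood at 1190 CPM under the MHCC-97H label, 19.6 CPM under MDA-MB-231 and 22.1 CPM under HCT-116. The other way went CAV1 (112 CPM under MHCC-97H, 5760 and 5840 CPM under the others), MSN (740, 1800 and 1840), AXL (83.0, 96.7 and 93.9) and ZEB1 (12.6, 18.3 and 18.8), and SPARC was at most at 0.0473 CPM. The blood cell marker CD3E had 0 counts in all libraries, and PTPRC reached at most 0.365 CPM. The identity of the line behind a label was not tested, so groups are called by their labels.

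Promoter sequences are shown for subunits that parted in the main edgeR fit. SF3B1 was the 1 subunit called higher under the MHCC-97H label, and SF3B5 was among those called lower there. Both calls depended on the processing, as described below. Also shown are SF3B6 and SF3B4, which in DMSO had the largest difference between the MHCC-97H label and the others upward and downward. Each sequence runs from 250 bases before to 50 bases after a start site, on the minus strand of GRCh38.p14. The sequences are as given by RefSeq, which held promoters of 8 of the 10 subunits. Capitals mark matches to CCGGAAGT (an ETS factor motif) or AAGATGGC (a YY1 motif) on either strand. The windows are chr2:197434979-197435278 for SF3B1, chr6:144095524-144095823 for SF3B5, chr1:149927754-149928053 for SF3B4 and chr2:24076277-24076576 for SF3B6.
SF3B1: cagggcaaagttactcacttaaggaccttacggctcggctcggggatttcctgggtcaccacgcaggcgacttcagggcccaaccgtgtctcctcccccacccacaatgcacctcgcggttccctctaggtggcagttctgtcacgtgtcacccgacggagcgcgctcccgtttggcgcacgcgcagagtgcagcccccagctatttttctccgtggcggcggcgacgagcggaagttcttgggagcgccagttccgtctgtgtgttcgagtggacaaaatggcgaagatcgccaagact
SF3B5: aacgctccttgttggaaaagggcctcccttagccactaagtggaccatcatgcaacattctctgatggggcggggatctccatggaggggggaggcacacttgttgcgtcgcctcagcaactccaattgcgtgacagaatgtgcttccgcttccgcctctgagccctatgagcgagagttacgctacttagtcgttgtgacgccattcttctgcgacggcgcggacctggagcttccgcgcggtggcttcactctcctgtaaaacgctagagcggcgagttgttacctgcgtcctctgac
SF3B4: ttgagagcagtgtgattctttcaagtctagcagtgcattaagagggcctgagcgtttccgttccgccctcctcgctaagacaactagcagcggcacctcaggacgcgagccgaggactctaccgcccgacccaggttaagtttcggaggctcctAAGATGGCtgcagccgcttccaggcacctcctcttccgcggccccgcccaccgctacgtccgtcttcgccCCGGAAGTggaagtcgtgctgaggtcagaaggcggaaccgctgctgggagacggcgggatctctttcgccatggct
SF3B6: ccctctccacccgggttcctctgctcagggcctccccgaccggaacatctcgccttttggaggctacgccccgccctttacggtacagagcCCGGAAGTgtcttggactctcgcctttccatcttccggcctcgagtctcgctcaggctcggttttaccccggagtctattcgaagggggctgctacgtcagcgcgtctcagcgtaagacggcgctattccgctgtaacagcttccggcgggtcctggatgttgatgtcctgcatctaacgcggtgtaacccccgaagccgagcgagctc

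CCGGAAGT or its reverse complement ACTTCCGG was found in the promoters of 6 of the 8 subunits (SF3A1, SF3A2, SF3A3, SF3B2, SF3B4 and SF3B6), and in 4.14% of all 35116 promoters of this length. AAGATGGC or GCCATCTT was found in 3 (SF3A1, SF3B2 and SF3B4), against 2.89% of all promoters. GCATGCGC or GCGCATGC, an NRF1 motif, was found in 1 (SF3A2), against 3.05%. The windows of SF3B1, which has 2 listed starts, and of SF3B5 held none of these letters. No motif overlapped another in a window shown. The motifs were chosen after the promoters had been read, and a match describes letters, not a bound factor.

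The subunits differ widely as genes (GRCh38, GENCODE release 29). SF3B1 lies on chromosome 2 (197389784 to 197435091, 24 introns in its gene model), with a longest transcript of 41.0% GC. The other large subunits were SF3B2 (chromosome 11, 66050729 to 66069308, 45.7% GC), SF3B3 (chromosome 16, 70523788 to 70577670, 48.5% GC) and SF3A1 (chromosome 22, 30331988 to 30356947, 50.9% GC). Among the small ones, SF3B5 (chromosome 6, 144094881 to 144095573, 56.6% GC) has 0 introns and 693 exonic bases, fewer than all but 0.802% of tested genes. PHF5A (chromosome 22, 41459717 to 41468725, 47.9% GC), SF3B6 (chromosome 2, 24067584 to 24076443, 42.5% GC) and SF3B4 (chromosome 1, 149923317 to 149928344, 55.1% GC) have 3, 3 and 5 introns. SF3A2 (chromosome 19, 2236504 to 2248679) has 66.6% GC, and SF3A3 (chromosome 1, 37956975 to 37990921) has 48.5% GC. Large and small subunits overlapped in GC content: SF3B6 was below SF3B2, SF3B3 and SF3A1. The exons of SF3B2, SF3A1 and SF3A2 overlap AP006287.2, CCDC157 and PLEKHJ1 by 263, 218 and 398 bases. The strand setting of the counting is not given, so reads there cannot be assigned with certainty, and neither can reads shared between SF3A3 and its processed pseudogenes. Pseudogenes of the other subunits were not looked for.

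Under the MHCC-97H label, SF3B1 rose after H3B-8800 while SF3B2, SF3B5, PHF5A and SF3A2 fell. This is the contrast of treated with DMSO libraries that the design sets within each line. Of the 10 subunits 1 was called higher, where 12.9% of all tested genes were, and 4 were called lower, where 14.7% were. Their median log2 fold change was -0.160, against -0.058 over all tested genes. Values below are CPM scaled by TMM, edgeR's trimmed mean of M-values. In bulk RNA, fewer cells of a type and less RNA per cell cannot be told apart.

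SF3B1, which contacts the drug, stood at 234, 208 and 200 CPM in the DMSO libraries and at 303, 321 and 306 CPM in the treated ones. All treated libraries were above all controls, and the lowest of them exceeded the highest control by more than the spread of the treated group. Its level rose 1.45-fold (log2 fold change 0.53, SE 0.16, edgeR adjusted p = 0.021). Leaving out control 2 (0.066), control 3 (0.078) or treated library 2 (0.064) ended the call, with a log2 fold change of 0.49 to 0.60 over 18 fits that each left out 1 library.

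PHF5A, the zinc-finger subunit on the other side of the pocket, stood at 45.9, 50.2 and 52.5 CPM in DMSO and at 40.1, 35.5 and 39.6 CPM after treatment. Treated libraries all lay below the controls (1.29-fold lower, log2 fold change -0.37, SE 0.09, adjusted p = 0.0099). SF3B5, at 150, 138 and 149 CPM in DMSO, stood at 113, 112 and 115 CPM after treatment. The groups did not overlap, and the treated libraries were close together (log2 fold change -0.37, SE 0.08, adjusted p = 0.0061). Neither call was lost when any 1 of the 18 libraries was left out.

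SF3B2 and SF3A2 fell by smaller amounts. SF3B2, the carrier of SF3B4, went from 493, 510 and 528 CPM to 448, 440 and 454 CPM. This was a log2 fold change of -0.19 (SE 0.05, adjusted p = 0.015). Leaving out control 3 (0.07) or treated library 2 (0.057) ended the call. SF3A2, a zinc-finger subunit of SF3a, went from 123, 132 and 124 CPM to 109, 103 and 111 CPM, a log2 fold change of -0.23 (SE 0.07, adjusted p = 0.027). It lost its call in 4 of the 18 fits, those without control 2 (0.11), control 3 (0.061), treated library 1 (0.058) or treated library 2 (0.11). In both genes every treated library was below every control.

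The other 5 subunits were not called. SF3B6 stood at 95.8, 99.2 and 105 CPM in DMSO and at 92.1, 88.9 and 85.4 CPM after treatment (log2 fold change -0.17, adjusted p = 0.065), without overlap. The scaffold SF3B3 had a log2 fold change of -0.11 (adjusted p = 0.22), SF3B4 one of -0.10 (0.30) and SF3A1, the largest SF3a subunit, one of -0.15 (0.13). SF3A3 stood at 116, 119 and 120 CPM in DMSO and at 121, 117 and 117 CPM after treatment, with overlapping groups (0.00, approximate 95% interval -0.08 to 0.09). Counted by groups that did not overlap, 1 subunit was higher and 8 were lower, where 19.6% and 28% of all tested genes were. Of the 4 large subunits SF3B1 was called higher, SF3B2 was called lower and 2 were not called. Of the 4 small ones SF3B5 and PHF5A were called lower and 2 were not called. All of these large and small subunits except SF3B1 were lower without overlap. Whether size bears on the response was not tested.

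**Figure D1:**
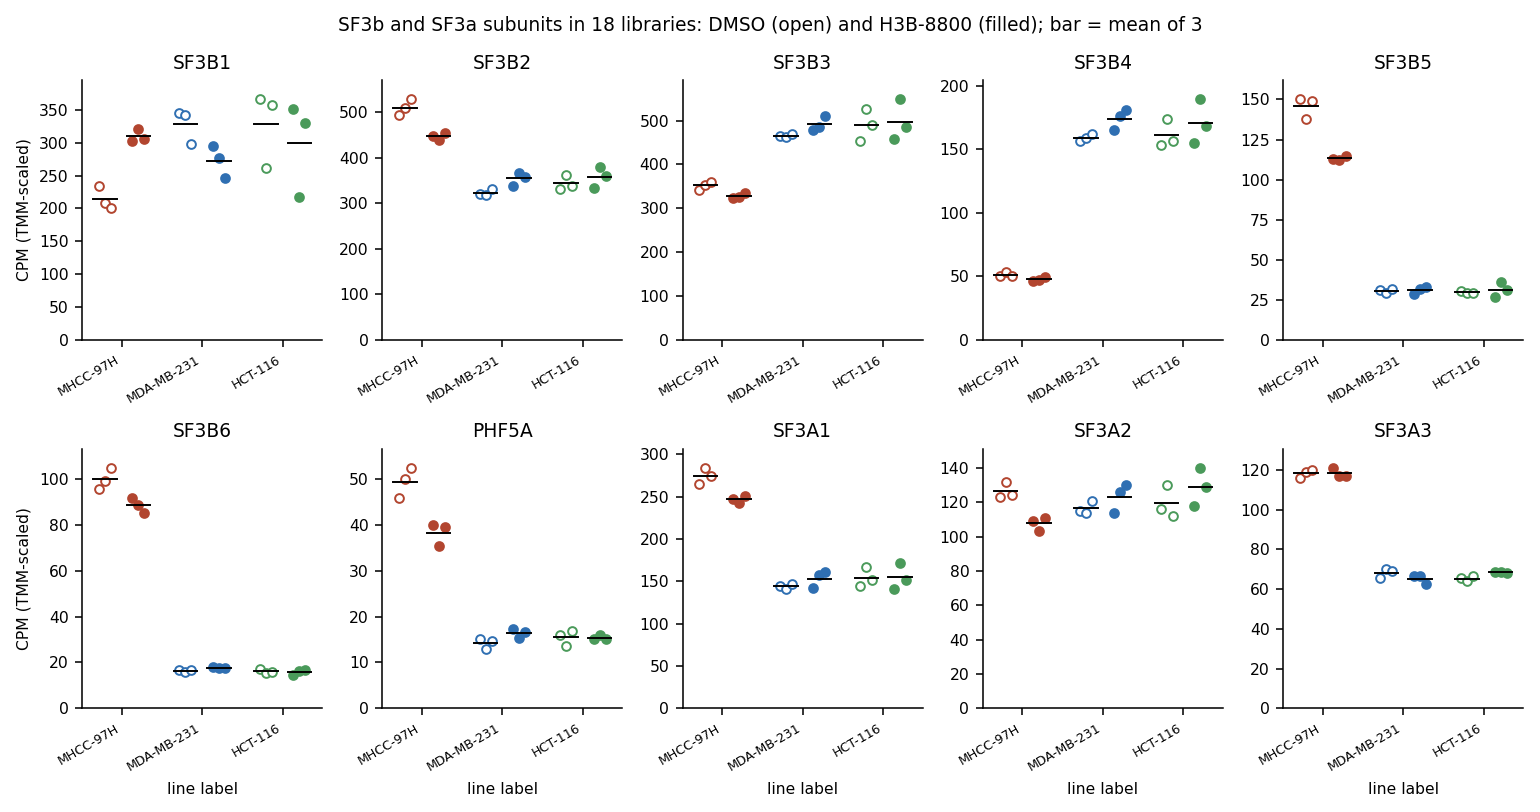
CPM scaled by TMM (vertical axes, from 0) of each subunit in the 18 libraries, by line label; open points are DMSO, filled points 20 nM H3B-8800 and bars the means of 3. Under MHCC-97H, SF3B1 is higher in all 3 treated libraries and SF3B5 and PHF5A are lower, and both HCT-116 libraries numbered 2 are low for SF3B1 (261 and 217 CPM).

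Fold changes under the MHCC-97H label moved with GC content across genes. Over 14223 tested genes with an annotation, the Spearman correlation of the log2 fold change was -0.52 for GC content and 0.36 for exonic length, given as a description across genes, which are not independent. Among tested genes SF3B1 has a GC percentile of 19.9 and an exonic length percentile of 85.2, and SF3A2 has a GC percentile of 98.0. SF3B6, at 42.5% GC, lies close to SF3B1 in GC content but has a length percentile of 2.94, and its log2 fold change was below 0.

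**Figure D2:**
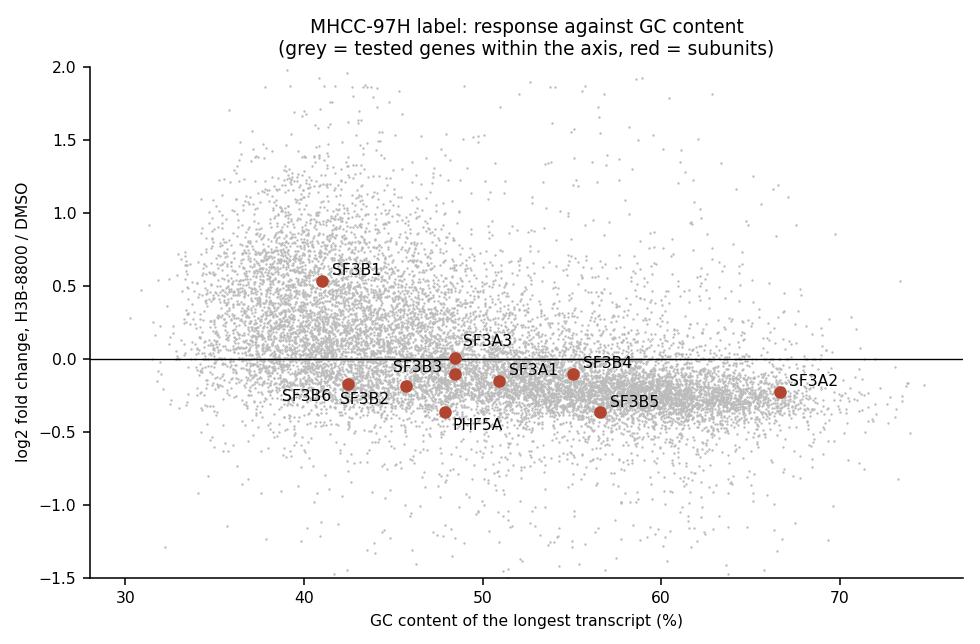
Log2 fold change of H3B-8800 against DMSO under the MHCC-97H label (vertical) against GC content of the longest transcript in percent (horizontal) for tested genes in grey, of which 330 of 14223 lie outside the vertical range, and for the 10 subunits in red. Genes of low GC content lie mostly above 0 and genes of high GC content below it; SF3B1 (41.0% GC, 0.53) lies among the former and SF3A2 (66.6% GC, -0.23) among the latter.

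With each library corrected for its trend over GC and exonic length, SF3B1 was at 0.21 (edgeR adjusted p = 0.13), SF3B5 at -0.08 (0.64), PHF5A at -0.21 (0.16) and SF3A2 at 0.11 (0.14), none of them called. SF3B2 was at -0.40 (0.0067) and was the 1 subunit called lower both with and without the trend. SF3B3 (-0.28, 0.045) and SF3B6 (-0.20, 0.043) were then called lower and SF3B4 (0.23, 0.0027) higher, so 1 subunit was higher and 3 were lower. Of all 14234 tested genes 1270 were higher and 857 lower in this fit. With the replicate number of every label added as a block to the same fit, SF3B1 was called higher at the same 0.21 (0.0057). SF3B6 was then no longer called (0.092), so 2 were higher and 2 lower, where 1534 and 961 of all 14234 genes were. With the length of the longest transcript in place of exonic length, a choice made after seeing the data, and without the block, SF3B2, SF3B3, SF3B6 and SF3B4 were called in the same directions. Of all 14234 tested genes 1027 were then higher and 933 lower. Removing the trend also removes any part of the drug's effect that follows GC content or length, and the 2 cannot be told apart.

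Scaling by library totals instead of TMM gave another count again. SF3B1 (0.66, adjusted p = 0.010) and SF3A3 (0.14, 0.036) were then higher, and SF3B5 (-0.24, 0.042) was lower. Of all 14234 tested genes 2501 were higher and 346 lower. PHF5A was at -0.23 (0.078) and SF3B2 at -0.06 (0.41). Of the genes called over the whole table, 46.7% were higher with TMM, 87.8% with library totals, 59.9% with upper-quartile factors and 59.7% with the trend removed.

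**Figure D3:**
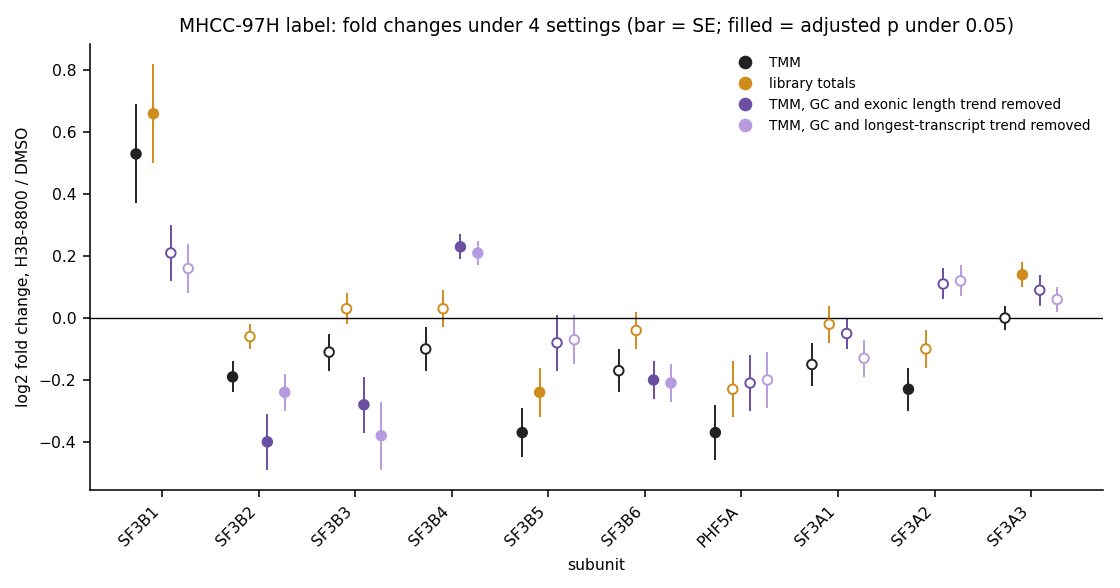
Log2 fold change with its SE (vertical) of each subunit (horizontal) under the MHCC-97H label, under 4 settings shown by colour; filled points have an adjusted p under 0.05. SF3B1 moves from 0.53 with TMM to 0.21 with the trend removed, while SF3B2 moves from -0.19 to -0.40 and SF3B4 from -0.10 to 0.23.

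The ratio of SF3B1 to PHF5A counts within a library needs no scaling between libraries. It does keep each library's trend over GC content and length, in which the 2 genes differ. SF3B1 has 41.0% GC and 9164 exonic bases, PHF5A 47.9% and 1235. Under the MHCC-97H label it was 5.11, 4.14 and 3.82 in DMSO and 7.56, 9.05 and 7.73 after treatment. The treated libraries were all higher, by 0.90 on the log2 scale (exact two-sided permutation p = 0.1, the smallest that 3 against 3 libraries allow). SF3B1 was also higher relative to each of the other 8 subunits, without overlap, with ratios 1.45 to 1.87 times those in DMSO over all 9 partners. The 9 ratios share the SF3B1 counts, so they are not independent. Such a ratio shows unequal change and not which gene changed.

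Under the MDA-MB-231 label no subunit was called, and 5 genes of 14234 were (0.0351%). In edgeR 1024 genes were at an unadjusted p under 0.05, among them SF3B2 and PHF5A. DESeq2 called 49 genes and none of the 10. SF3B1 was at 346, 342 and 298 CPM in DMSO and at 295, 277 and 247 CPM after treatment. All treated libraries were below all controls, though by only a few CPM at the nearest pair (log2 fold change -0.27, SE 0.15, adjusted p = 0.76, approximate 95% interval -0.57 to 0.04).

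SF3B2, SF3B3, SF3B4, SF3B6 and PHF5A were higher in every treated library labelled MDA-MB-231 than in every control, and SF3B1 was lower. Groups did not overlap for 18.5% of all tested genes, 8.67% higher and 9.86% lower. PHF5A went from 15.1, 13.0 and 14.6 CPM to 17.3, 15.3 and 16.6 CPM, a log2 fold change of 0.20 (SE 0.09, adjusted p = 0.69) and a gap of a fraction of 1 CPM between the nearest libraries. SF3B2 went from 321, 318 and 331 CPM to 338, 367 and 358 CPM (0.13, SE 0.05, adjusted p = 0.62). The members' median log2 fold change was 0.083, against -0.002 over all genes. The correlation of fold change with GC content across genes was 0.31 under this label. The SF3B1 to PHF5A ratio was 22.8, 26.3 and 20.4 in DMSO and 17.1, 18.2 and 14.9 after treatment, lower without overlap (-0.47 on the log2 scale, exact two-sided permutation p = 0.1). Ratios of SF3B1 to SF3B2 (-0.40), SF3B3 (-0.34), SF3B4 (-0.39) and SF3B6 (-0.37) were also lower without overlap. Those to SF3B5, SF3A1, SF3A2 and SF3A3 overlapped.

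Under the HCT-116 label no subunit was called either, again with 5 genes of 14234 (0.0351%) called and 655 at an unadjusted p under 0.05. DESeq2 called 22 genes and none of the 10. SF3B1 was at 366, 261 and 358 CPM in DMSO and at 352, 217 and 330 CPM after treatment. The libraries numbered 2 were the lowest of both groups, and the groups overlapped (log2 fold change -0.13, SE 0.15, approximate 95% interval -0.44 to 0.17). The same 2 libraries were the highest of their groups for SF3B2, SF3B3, SF3B4, SF3A1 and SF3A2. SF3A3, at 65.7, 63.9 and 66.4 CPM in DMSO and 68.6, 68.7 and 68.3 CPM after treatment, was the 1 subunit whose groups did not overlap, where 7% of all genes had such groups and 3.71% were higher. The SF3B1 to PHF5A ratio was 22.9, 19.4 and 21.2 in DMSO and 23.3, 13.6 and 21.6 after treatment, with overlap (-0.15 on the log2 scale, exact two-sided permutation p = 0.9). With both libraries numbered 2 left out, chosen after seeing the data, no subunit was called under this label or the MDA-MB-231 label. Under the MHCC-97H label 1 was then higher and 5 were lower, with SF3A1 added (adjusted p = 0.037) and SF3B1 at 0.00015. Of all 14392 genes tested in that fit 2217 were higher and 2458 lower.

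**Figure D4:**
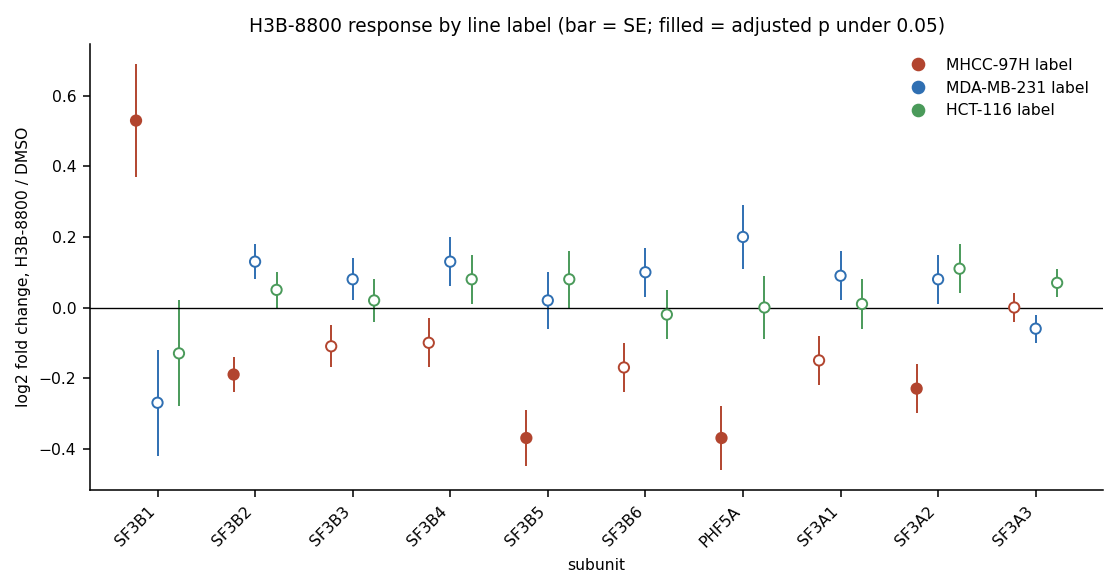
Log2 fold change of H3B-8800 against DMSO with its SE (vertical) for each subunit (horizontal) under the 3 line labels; filled points have an adjusted p under 0.05. Filled points occur under MHCC-97H alone, with SF3B1 at 0.53 and SF3B5 and PHF5A at -0.37, while SF3B1 is at -0.27 under MDA-MB-231 and -0.13 under HCT-116.

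The drug response differed between labels for 4 subunits, by an interaction over the 3 labels in edgeR, where 15.4% of all tested genes were called. SF3B1 had 0.53 under MHCC-97H, -0.27 under MDA-MB-231 and -0.13 under HCT-116 on the log2 scale (adjusted p = 0.041), and the next genes are given in that order. SF3B2 had -0.19, 0.13 and 0.05 (0.022), SF3B5 had -0.37, 0.02 and 0.08 (0.032), and PHF5A had -0.37, 0.20 and 0.00 (0.025). SF3A2 missed the threshold at an adjusted p of 0.05, and the other 5 lay between 0.12 and 0.30. Each of these calls was lost in some of the 18 fits that left out 1 library. For SF3B1 these were 11: without MHCC-97H control 2 or 3 or any treated library, MDA-MB-231 control 1 or 2 or treated library 2 or 3, or HCT-116 control 1 or 3 (0.058 to 0.12). For SF3B5 they were 10: without any MHCC-97H library, MDA-MB-231 control 2 or treated library 2 or 3, or HCT-116 control 3 (0.05 to 0.091). SF3B2 lost its call without MHCC-97H control 2 or 3 or treated library 1 or 2 (0.056 to 0.075), and PHF5A without MHCC-97H control 2 or 3 or treated library 2, or MDA-MB-231 control 2 (0.052 to 0.081). With library totals SF3B2 (0.21), SF3B5 (0.16) and PHF5A (0.1) were not called, while SF3B1 (0.021) and SF3A3 (0.044) were. With upper-quartile factors SF3B2 (0.051) and SF3B5 (0.051) were not called, while SF3B1 (0.031) and PHF5A (0.023) were. With the GC and length trend removed SF3B2 alone was called (0.019), and with the replicate block added to that fit SF3B1 (0.0056), SF3B2 (0.0020) and SF3B3 (0.0029) were. With the replicate number as a block and no trend removed 8 subunits were called, and genes called overall went from 2197 to 3585. With both HCT-116 libraries numbered 2 left out, 5 subunits were called, SF3B1 at 0.00051, where 3273 of all 14392 genes were.

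In DMSO, SF3B6, SF3B5 and PHF5A were several times higher under the MHCC-97H label than under the other 2, and SF3B4 was lower. These levels use the same DMSO libraries as the responses above. Against both the MDA-MB-231 and the HCT-116 label 9 of 10 subunits were called, where 82.7% and 82.5% of all tested genes were. SF3B6 stood at 95.8, 99.2 and 105 CPM under MHCC-97H, at 16.6, 15.7 and 16.9 CPM under MDA-MB-231 and at 17.0, 15.5 and 15.7 CPM under HCT-116. The MHCC-97H libraries were far above the others (6.10-fold and 6.21-fold, adjusted p = 1.5e-14 and 1.3e-14). SF3B5 was 4.77-fold and 4.92-fold higher, and PHF5A 3.48-fold and 3.21-fold higher.

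SF3B4, the RNA-binding subunit, went the other way, at 50.2, 53.0 and 49.9 CPM under MHCC-97H against 156, 159 and 162 CPM under MDA-MB-231 and 153, 174 and 156 CPM under HCT-116. It was 3.11-fold and 3.15-fold lower (adjusted p = 4.2e-12 and 3.7e-12), with no overlap. SF3A1 (1.90-fold and 1.78-fold), SF3A3 (1.73-fold and 1.81-fold) and SF3B2 (1.58-fold and 1.48-fold) were higher under MHCC-97H. SF3A2 differed by 0.11 and 0.08 on the log2 scale and was not called (adjusted p = 0.15 and 0.31).

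SF3B1 was 1.53-fold lower in DMSO libraries labelled MHCC-97H than under either other label (log2 difference -0.62, SE 0.16, adjusted p = 0.0018 for each), and SF3B3 was 1.32-fold and 1.39-fold lower. With the GC and length trend removed, SF3B1 differed by 0.04 and 0.02 (adjusted p = 0.68 and 0.81), SF3B3 by 0.28 and 0.19 (0.009 and 0.06), and SF3A2 by -1.04 and -1.06, now called lower. SF3B4 (-2.39 and -2.39), SF3B6 (2.27 and 2.27), SF3B5 (1.29 and 1.36) and PHF5A (1.32 and 1.19) kept direction and call. Against MDA-MB-231, the all-gene median was -0.091 with TMM and -0.372 with library totals. SF3B6 was then at 2.33, SF3B5 at 1.97, PHF5A at 1.52, SF3B4 at -1.92, SF3B1 at -0.90 and SF3A2 at -0.17, called lower (0.023).

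Levels of different genes were compared per kilobase of exons. In DMSO libraries labelled MHCC-97H, SF3B5 was highest at 210 ± 9.69 CPM per kilobase (SD, n = 3), followed by SF3B6 at 83.5 ± 3.78 and SF3B2 at 52.1 ± 1.77. SF3A1 (43.3), SF3A2 (40.3) and PHF5A (40.1) came next, SF3A1 overlapping SF3A2 and SF3A2 overlapping PHF5A. SF3B3 (28.3) stood apart from its neighbours, and SF3A3 (25.0), SF3B1 (23.4) and SF3B4 (22.7) formed the low end, each overlapping the next. After H3B-8800 under this label SF3B1 was at 33.8 ± 1.06 and overlapped SF3A2 at 34.4 ± 1.36.

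The order was different under the other labels. SF3B4 led at 70.8 ± 1.46 CPM per kilobase under MDA-MB-231 and 71.6 ± 5.11 under HCT-116, with SF3B5 second at 44.1 ± 2.06 and 42.8 ± 0.639, under HCT-116 overlapping SF3B3. SF3B3, SF3A2, SF3B1 and SF3B2 followed in that order under both labels, between 37.5 and 33.0 under MDA-MB-231 and between 39.5 and 35.1 under HCT-116, each overlapping the next. SF3A1 was at 22.8 and 24.4. SF3A3, SF3B6 and PHF5A were lowest, at 14.4, 13.7 and 11.5 under MDA-MB-231 and 13.8, 13.4 and 12.5 under HCT-116. Neighbours overlapped there, except SF3B6 and PHF5A under MDA-MB-231. The order depends on the length used. Under MHCC-97H, SF3B5 was first and SF3B4 last by exonic length, by longest transcript and by coding length, whereas under MDA-MB-231 the first gene was SF3B4, SF3B2 and SF3B3 in turn.

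**Figure D5:**
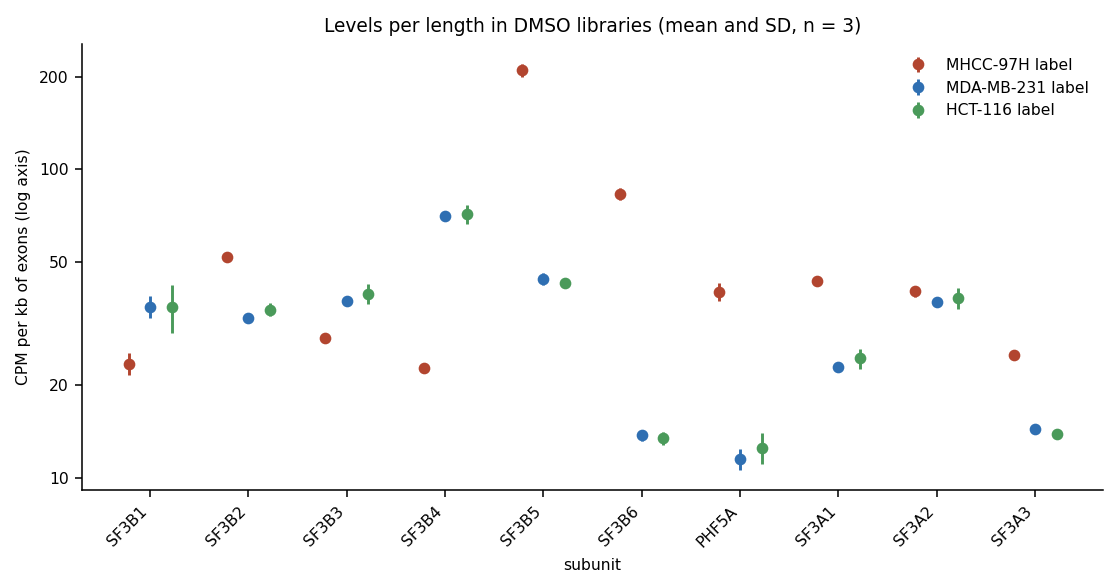
Level per kilobase of exons in DMSO libraries (vertical, log axis, CPM per kilobase, mean and SD of 3) of each subunit (horizontal) under the 3 line labels. SF3B5, SF3B6 and PHF5A are highest under MHCC-97H (210, 83.5 and 40.1) and SF3B4 is lowest there (22.7), while the MDA-MB-231 and HCT-116 points lie close together.

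The genes nearest to SF3B1 in their pattern over the 18 libraries lay outside the complex. With so few partners among 9232 genes this was likely in advance, so nothing about the complex follows from it. The distance also holds the difference between labels. Likeness was the root mean square distance of centred log2 CPM over the 18 libraries, among 9232 genes averaging at least 10 CPM. The nearest were USP47 (0.0678), a deubiquitinase, UBXN4 (0.0774), FNBP1L (0.0782), PHLDB2 (0.0802) and SPTY2D1 (0.082). Their GC content ran from 38.7% (FNBP1L) to 43.3% (PHLDB2), close to the 41.0% of SF3B1. The nearest subunit was SF3B3, ranked 1695 (0.341), and the farthest was SF3B6, ranked 8243 (1.32).

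Other proteins of the U2 snRNP were described from lists chosen with earlier results of these data known. Their counts stand beside the 12.9% of all tested genes called higher and the 14.7% called lower under the MHCC-97H label. Of 9 core proteins (U2 proteins and the Sm ring) 0 were higher and 1 was lower, a share near or below that of all genes, with a median log2 fold change of -0.091 against -0.058 over all genes. SNRPA1, the U2 A' protein, went from 105 ± 1.60 to 94.6 ± 1.53 CPM (-0.16, SE 0.04, edgeR adjusted p = 0.017). SNRPG (-0.27, 0.063), SNRPF (-0.18, 0.091) and SNRPB (-0.17, 0.17) were not called. With library totals SNRPA1 was at -0.02 (0.81) and no gene of the list was called. With the trend removed SNRPA1 was at -0.28 (0.0042) and SNRPB at 0.19 (0.0095), called higher.

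Of 15 proteins that join the 17S U2 snRNP or recognise the branch site, 6 were higher and 5 lower, where 12.9% and 14.7% of all genes were, with a median of 0.03. DDX46, the helicase that readies U2 for the branch site, went from 19.2 ± 2.95 to 39.4 ± 2.26 CPM, a log2 fold change of 1.04 (SE 0.15, adjusted p = 0.0010). DHX15, a helicase that dismantles spliceosomes, rose by 0.62 (0.0020), and U2SURP, a U2-associated SR-related protein, by 0.54 (0.0053). DNAJC8 fell by 0.31 on the log2 scale (0.0029). With the GC and length trend removed DDX46 (0.69), DHX15 (0.33) and DNAJC8 (-0.29) were still called, and U2SURP (0.15, 0.37) was not. DDX46 and U2SURP overlap other genes in part of their exons. With library totals 7 were higher and 1 lower, where 2501 and 346 of all 14234 tested genes were. With the trend removed 5 were higher and 2 lower, where 1270 and 857 of all genes were.

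The SF3b subunits also serve the minor spliceosome, which removes a rare class of introns, and SF3B3 and SF3B5 also belong to the SAGA coactivator. Of 13 minor spliceosome proteins 2 were higher, RNPC3 (0.65, adjusted p = 0.0096) and SNRNP48 (0.65, 0.013), and 1 was lower, SCNM1 (-0.27, 0.021), with a median of -0.123, shares near or below those of all genes (12.9% and 14.7%). ZMAT5 (-0.31, 0.058) was not called. RNPC3 overlaps AMY2B, and SCNM1 overlaps several neighbours. With the trend removed RNPC3 (0.43) and SNRNP48 (0.43) were called and SCNM1 (-0.05) was not.

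Of 19 other SAGA subunits 2 were higher and 1 lower, with a median of -0.113, again shares near or below those of all genes (12.9% and 14.7%). TRRAP, its largest scaffold, went from 54.1 ± 5.14 to 78.6 ± 4.73 CPM (0.54, SE 0.07, adjusted p = 0.00057), and the acetyltransferase KAT2B rose by 0.56 (0.0055). TADA3 fell by 0.38 (0.0016). With the trend removed TRRAP (0.38, 0.00012) and KAT2B (0.46, 0.009) were still called, and TADA3 was not (-0.10, 0.14). ATXN7L3 (-0.18, 0.051) was not called. The SF3B3 paralogs DDB1, of the DNA damage-binding complex, and CPSF1, of the polyadenylation machinery, were both lower (-0.24, 0.016, and -0.26, 0.023). With library totals neither was called (-0.11 and -0.13). With the trend removed DDB1 was called (-0.31, 0.0098) and CPSF1 was not (-0.03, 0.57). No gene of these 5 lists was called under the MDA-MB-231 or HCT-116 label.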

How the data were processed

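The authors deposited read counts, whole numbers for 20263 Ensembl genes in 18 libraries, with no normalization. Per the submitters' processing notes, fastp, HISAT2 and GRCh38 were used. Not given in the sources used here are their versions, the counting tool, annotation, strand setting and library kit. Groups came from the labels. The 10 subunits, the gene lists, the marker lists and the tests were chosen with earlier results of these data known.

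The 18 libraries were fitted together, each group with a mean of its own, in edgeR 4.0.16 under R 4.3.3, with TMM scaling, filterByExpr by group and the robust quasi-likelihood F test. P-values were adjusted by Benjamini-Hochberg over 14234 genes, called under 0.05. CPM values are TMM-scaled, except markers. Named genes were the 10 subunits, up to 4 genes per list with the smallest adjusted p under the MHCC-97H label, the 5 genes most like SF3B1, and the markers. Intervals are approximate, from the SE. Gene annotation came from GENCODE 29, which held 20224 of the 20263 genes counted, and promoters from RefSeq (GRCh38.p14).

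Alternatives were DESeq2 1.42.0, library-total and upper-quartile scaling, no filter, the 6 libraries of a label alone, a block for the replicate number, removal from each library of its trend over GC content and length (splines with 5 degrees of freedom), and leaving out each library. The reported fit alone was also run on counts simulated for the MHCC-97H contrast. These held no trend over GC content or length, so that run cannot speak to the trend, the interaction or the alternatives.

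Deviations of same-numbered libraries from their group means were correlated over 9233 genes averaging at least 10 CPM. The correlations were 0.16, 0.43 and 0.12 under HCT-116, although control 1 correlated more with treated library 3 (0.27). They were -0.04, 0.13 and 0.01 under MHCC-97H and 0.19, 0.15 and 0 under MDA-MB-231. Libraries with unlike numbers ran from -0.16 to 0.15 under MHCC-97H and from -0.24 to 0.11 under MDA-MB-231. The labels do not say whether libraries that share a number are paired. The block nevertheless paired libraries by number under all 3 labels. Its results under MHCC-97H and MDA-MB-231 therefore rest on a pairing that these correlations do not clearly show. A gene with 0 counts over the 6 libraries of the MHCC-97H label can have up to 0.0142 CPM, taken as 3 counts, for counting error alone.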

Additional observations from a re-analysis of the deposited data

Results flagged for a closer look

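For 4 subunits the H3B-8800 effect differed over the 3 line labels by the interaction test of edgeR, which called 15.4% of all tested genes. The adjusted p was 0.041 for SF3B1, 0.022 for SF3B2, 0.032 for SF3B5 and 0.025 for PHF5A. SF3B1 was higher in 3 of 3 treated libraries than in every control under the MHCC-97H label and lower in 3 of 3 under the MDA-MB-231 label. With library totals SF3B1 was called (0.021) and the other 3 were not, with upper-quartile factors SF3B1 (0.031) and PHF5A (0.023) were, and after removal of the trend over GC content and length SF3B2 alone was (0.019). In the reported fit PHF5A and SF3B2 went the opposite way to SF3B1 under both labels by log2 fold change. So did every other subunit except SF3A3 (0.00 under MHCC-97H and -0.06 under MDA-MB-231). Under MDA-MB-231 no subunit was called. The HCT-116 and MDA-MB-231 labels hold one profile, so they are not separate lines in this test.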

How the results depend on the processing

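Under the MHCC-97H label, genes called numbered 2127 with the GC and length trend removed, 2495 with the trend removed and the replicate block, and 1960 with the longest transcript as length, against 3922 in the reported fit, and 2141 to 4455 with 1 library left out (2439, 2141 and 2336 without MHCC-97H control 2, control 3 and treated library 2). Subunits called higher were 2 with library totals and 2 with trend and block, and 0 to 1 with 1 library left out. Those called lower were 1 with library totals, 2 with upper-quartile factors, 2 with trend and block, and 2 to 5 with 1 library left out (2 without MHCC-97H control 3 or treated library 2). Of all genes, 2501 were higher and 346 lower with library totals. These counts were 1943 and 1301 with upper-quartile factors, and 1534 and 961 with trend and block. The replicate block alone gave 1 higher and 6 lower, adding SF3B3 (0.021) and SF3A1 (0.028), and called no subunit under the other labels. Of all genes it called 2184 higher and 2481 lower under MHCC-97H. Genes called under MDA-MB-231 were 49 with DESeq2, 14 with its 6 libraries alone, 11 with the trend removed by either length, 9 with trend and block, 15 without both HCT-116 libraries numbered 2, and 4 to 8 with 1 library left out (8 without HCT-116 control 3 or treated library 2). Under HCT-116 they were 22 with DESeq2, 1 with its 6 libraries alone and 3 to 15 with 1 left out (3 without control 2 or 3, 15 without treated library 1). The interaction called 1084 genes with the trend removed and 565 to 2784 with 1 library left out, with the 565 reached without MHCC-97H control 3 and the 8 next lowest counts (670 to 1441) without MHCC-97H control 2 or any treated library, MDA-MB-231 control 1 or 2 or treated library 3, or HCT-116 control 3. The log2 difference of the SF3B1 to PHF5A ratio under HCT-116 ran from -0.30 to 0.09 over libraries left out, the latter without treated library 2.

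Signs turned as follows under MHCC-97H. SF3B3 was at 0.03 and SF3B4 at 0.03 with library totals. With the trend removed, with trend and replicate block, and with the longest transcript, SF3B4 was at 0.23, 0.24 and 0.21 and SF3A2 at 0.11, 0.11 and 0.12. SF3A3 ran from -0.01 to 0.02 with 1 library left out. Under MDA-MB-231, SF3B5 was at -0.01 with library totals, at -0.09, -0.09 and -0.08 in those trend fits, and from -0.01 to 0.08 with 1 left out. Under HCT-116, SF3B6 was at 0.01, 0.01 and 0.02 in the trend fits, and SF3A1 at 0.00 in all of them and at -0.01 with library totals. PHF5A was at 0.00 with upper-quartile factors, 0.01 with the replicate block and 0.00 with trend and block. Without both libraries numbered 2, SF3B3 was at 0.00, SF3B5 at -0.04 and SF3A1 at -0.02. With 1 library left out under HCT-116, SF3B1 ran from -0.27 to 0.05, SF3B3 from -0.06 to 0.08, SF3B4 from 0.00 to 0.15, SF3B5 from -0.04 to 0.18, SF3B6 from -0.07 to 0.05, PHF5A from -0.09 to 0.07 and SF3A1 from -0.08 to 0.07. The cause of these changes was not tested. With 3 libraries a group, no exact test of a single ratio can go below 0.1, and the counting of reads in overlapping genes is not given.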
